A study of Mus musculus with 9 samples.

Results

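The 10 genes described here encode cytokine receptor chains and the inhibitors that feed back on them in developing CD4 T cells. The receptor chains are Il7r, Il2rg, Il4ra, Il21r, Il15ra and Il6ra, and the inhibitors are Cish, Socs1, Socs2 and Socs3. They were taken by symbol from a table of 41978 genes, and all 10 were among the 30693 genes tested (those reaching a TPM, the length-scaled share of a library's transcripts, of 1 in 3 or more samples). Along the reporter gradient, Il7r, the IL-7 receptor alpha chain, was 3.56-fold lower in GFPhi than in GFPlo thymocytes and passed the test between GFPmed and GFPhi as well. Cish, an inhibitor of STAT5 signalling, was 3.62-fold higher and Il21r, the private chain of the IL-21 receptor, 1.64-fold higher. The other 7 genes, Il2rg, Il4ra, Il15ra, Il6ra, Socs1, Socs2 and Socs3, did not pass the test.

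IL-2, IL-4, IL-7, IL-9, IL-15 and IL-21 each bind a receptor made of private chains and the common gamma chain, the product of Il2rg. Binding activates JAK1 and JAK3, which phosphorylate STAT factors: mainly STAT5 for IL-2, IL-7 and IL-15, STAT6 for IL-4 and STAT3 for IL-21. STATs in turn induce CISH and the SOCS proteins, which bind receptors or JAKs through an SH2 domain and dampen the signal. The IL-6 receptor does not use the gamma chain and signals through the product of Il6st. In the thymus, Il7r is switched off at the CD4 CD8 double-positive (DP) stage and returns after positive selection, when IL-7 helps to keep single-positive thymocytes alive, in part through BCL2.

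The data are bulk RNA-seq profiles of 9 samples of semimature CD4 single-positive (SP4) thymocytes, sorted as live cells positive for CD4, CD69 and CD24 and negative for CD8 and CD25. The mice carried the Nur77-eGFP BAC transgene, in which GFP reports transcription of Nr4a1 (Nur77), an early target of the T cell receptor. About 10% of cells from the bottom, the middle and the top of the GFP distribution gave the GFPlo, GFPmed and GFPhi groups, each of 3 biological replicates of 10000 sorted cells. The groups are read as low, intermediate and high self-reactivity, and each comparison asks how the receptor and inhibitor transcripts change along that gradient. All 3 groups carry the same transgene, no group lacks it, and no cytokine, receptor or inhibitor was manipulated. The labels give no age per sample, and the study's text calls the CD24 gate low in one place and high in another. The GFPlo, GFPmed and GFPhi cells of a thymus are different cells and not 1 population followed in time. The samples are bulk, so fewer cells expressing a gene and less of its RNA per cell cannot be told apart.

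Total reads per sample, solved from the deposited values, ran from 7465552 to 14943774 with a median of 9426281. Nr4a1 itself checked the sort: its level was 217 ± 32.1 TPM in GFPlo, 374 ± 28.6 in GFPmed and 840 ± 75.0 in GFPhi (SD, n = 3 in each group, as throughout). Cd4 was abundant in all groups, at 582 ± 36.4, 562 ± 13.2 and 474 ± 28.9 TPM. The summed level of 10 SP4 markers ran from 6778 to 9107 TPM in GFPlo and from 6971 to 7936 in GFPhi. Trbc2 dominated this sum, with means of 4426 and 4208 TPM. Of the 10 markers, 9 had a log2 fold change below 0 in GFPhi and 1 above, and 2 passed as lower. These were Cd69, a marker of the sort, from 375 to 216 TPM (-0.79, adjusted p = 0.0142, limma), and Gata3 (-0.74, adjusted p = 0.0149). A further set moved with the gate: the summed level of 7 markers of mature, egress-ready SP cells was 568 to 666 TPM in GFPlo, 816 to 938 in GFPmed and 1779 to 1919 in GFPhi, with 6 of the 7 genes higher and 0 lower in GFPhi. Among them S1pr1, the receptor that guides thymic exit, went from 7.65 to 20.2 and 222 TPM, and Klf2, the factor that drives S1pr1, from 87.8 to 181 and 537. DP markers went the other way, from 61.2 to 63.1 TPM in sum in GFPlo to 29.5 to 40.4 in GFPhi, Rag1 staying between 5.19 and 6.10 in group mean. Sums of markers, here and below, add TPM as deposited, whose gene lengths include introns, so genes with long introns weigh less in them. The part of these shifts in maturity markers in the results below was not tested.

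The 4 short stretches of promoter sequence printed here bear on how these genes are wired. STAT5, which relays the signals of some of these receptors, binds the palindrome TTCNNNGAA, and Nr4a1 is the gene that the GFP gate reports. Promoter windows of 300 bases (250 before and 50 after the RefSeq start, build GRCm38.p6) were held for 9 of the 10 genes, Socs2 being the one without. The palindrome was found in 3 of the 9, and the windows of Cish, Socs3 and Il7r carry it in capitals here, 5′ to 3′ on the strand of the gene, while the capitals of Il21r mark TGACCTTT, the reverse complement of AAAGGTCA, the element to which Nr4a factors bind as monomers.
Cish, chr9:107296654-107296683: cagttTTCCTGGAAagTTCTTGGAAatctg
Socs3, chr11:117969501-117969530: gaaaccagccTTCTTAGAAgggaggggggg
Il7r, chr15:9529942-9530126: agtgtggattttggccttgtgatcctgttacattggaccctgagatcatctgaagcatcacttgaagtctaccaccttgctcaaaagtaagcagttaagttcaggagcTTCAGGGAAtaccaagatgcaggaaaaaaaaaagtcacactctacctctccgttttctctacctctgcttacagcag
Il21r, chr7:125603291-125603320: cgtgttaagggTGACCTTTggggagccgtg
Cish held the palindrome at 2 places, beginning at bases 1 and 12 with the RefSeq start as base 1. Both thus lie in its transcribed part and not upstream. A count of 2 or more was reached by 0.457% of all 32851 windows, whereas 8.30% held at least 1. Socs3 held it 154 bases and Il7r 142 bases upstream of the start. The longer palindrome with 4 bases between its arms, preferred by STAT6 and present in 6.95% of windows, was in 0 of the 9. AAAGGTCA, searched on both strands after the expression values were seen, was in 1.51% of windows and, of the 9 genes, in Il21r alone, 127 bases upstream. GTAAACA, the site of FOXO factors and searched in the same way, was in 3.65% of windows and also in Il21r alone, 38 bases upstream. These are letter matches in a short window. They do not show that a factor binds there, and a window without a match says nothing of sites elsewhere.

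**Figure D1:**
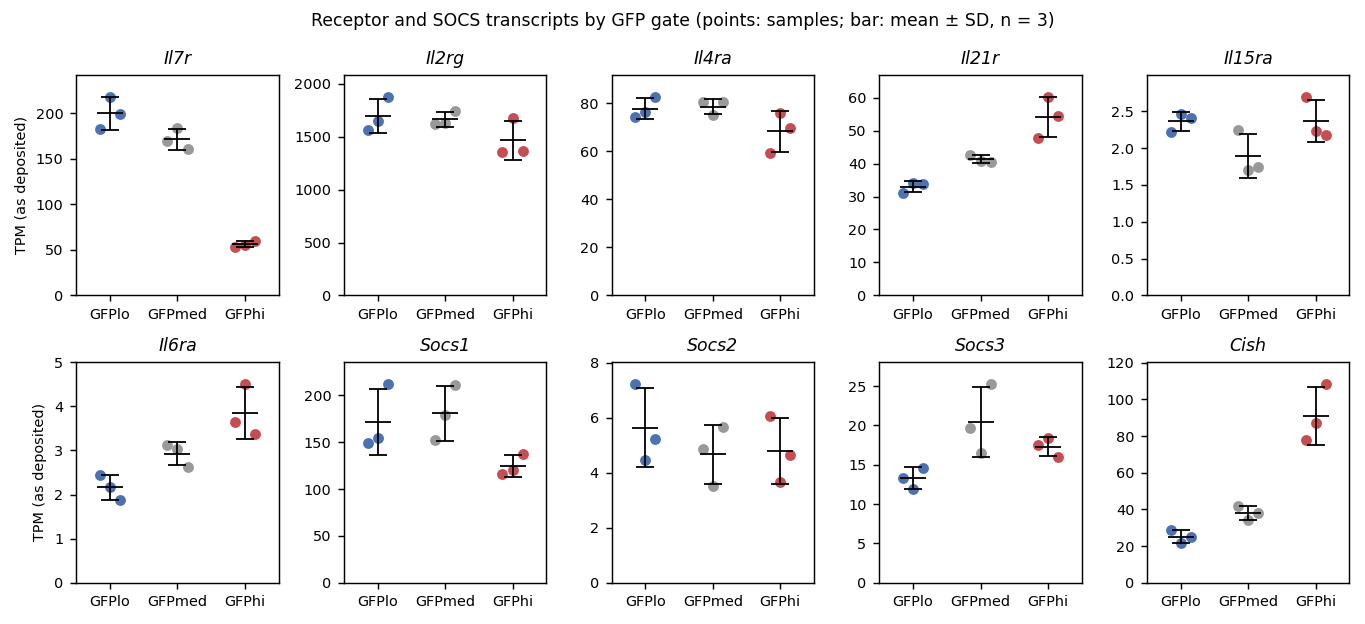
Each panel plots the level of 1 gene in TPM as deposited (y axis, from 0, its own scale in each panel) in GFPlo, GFPmed and GFPhi (x axis). Points are samples and bars are mean ± SD, n = 3. Il7r holds near 200 and 171 TPM in GFPlo and GFPmed and drops to 56.1 in GFPhi, Cish and Il21r climb over both steps, and the points of Il2rg, Il4ra, Il15ra and Socs2 mix between GFPlo and GFPhi.

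Il7r gave the clearest change among the receptor chains. The gene lies on chr15:9505788-9530176 on the minus strand and encodes the private alpha chain that binds IL-7. Its level in the 3 GFPlo samples was 182, 199 and 218 TPM. In GFPmed it was 161, 170 and 183 TPM, so that the highest GFPmed sample reached just above the lowest GFPlo sample. All 3 GFPhi samples, at 52.9, 55.7 and 59.7 TPM, lay far below every sample of the other groups. Behind these levels stood 4753 to 7087 reads in GFPlo, 4193 to 8512 in GFPmed and 1996 to 2219 in GFPhi. On the log2(TPM + 1) scale, on which all fold changes here were fitted and which understates the change of low genes, GFPhi against GFPlo was -1.81 (SE 0.09, 95% interval -2.02 to -1.61, adjusted p = 6.5e-05, limma). Among the 12128 genes with a mean TPM of at least 10, Il7r had rank 141 from the largest fall.

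The difference in Il7r was found in the upper step of the gradient. Between GFPlo and GFPmed its log2 fold change was -0.22 (SE 0.09, adjusted p = 1), and between GFPmed and GFPhi it was -1.59 (SE 0.09, adjusted p = 0.000375), a 3.05-fold difference in mean level. About 12.2% of the whole log2 change was thus present in GFPmed. The test of unevenness itself, GFPmed against the midpoint of the other groups, gave a log2 difference of 0.69 (SE 0.08, 95% interval 0.51 to 0.86) with an adjusted p of 0.0786, which missed the threshold. This contrast passed for 3 genes above and 3 below the midpoint of all 30693, 0.00977% in each direction. The mean of Nr4a1 was 1.72-fold higher in GFPmed than in GFPlo and 2.24-fold higher in GFPhi than in GFPmed.

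Il21r rose over the whole gradient. It lies on chr7:125603429-125633570 on the plus strand and encodes the chain that pairs with the gamma chain to bind IL-21. Levels were 31.2, 33.8 and 34.1 TPM in GFPlo, 40.4, 40.8 and 42.7 in GFPmed, and 47.9, 54.5 and 60.1 in GFPhi, and none of the 3 groups overlapped another. GFPhi against GFPlo was 0.69 (SE 0.10, 95% interval 0.47 to 0.92, adjusted p = 0.00791), below the log2 fold change of 1 that the study required of a call. Neither step passed on its own, at 0.32 (adjusted p = 0.781) for GFPmed against GFPlo and 0.38 (adjusted p = 0.138) for GFPhi against GFPmed. The rise in GFPhi rests on the fit: the adjusted p was 0.163 under median-of-ratios scaling and 0.0525 when GFPmed was left out of the fit.

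Il2rg, the gamma chain that all the private chains here except that of Il6ra share, had the highest level of the 10 and did not pass. Its level was 1696 ± 163 TPM in GFPlo, 1665 ± 69.3 in GFPmed and 1466 ± 184 in GFPhi, and GFPhi replicate 2, at 1678, lay above 2 of the 3 GFPlo samples. The log2 fold change of GFPhi against GFPlo was -0.21 (95% interval -0.45 to 0.02, adjusted p = 0.428). The ratio of Il7r to Il2rg within a sample was 3.07-fold lower in GFPhi than in GFPlo, with no overlap of samples (two-sided exact permutation p = 0.1, the smallest that 3 against 3 samples allow). The ratio restates the changes of both genes, and without overlap its p could take no other value. Il2rg lies on chrX:101264378-101268255.

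Il4ra, the chain that binds IL-4 and IL-13, did not pass, unlike its neighbour Il21r. It was at 77.7 ± 4.44 TPM in GFPlo, 78.6 ± 3.18 in GFPmed and 68.3 ± 8.52 in GFPhi. Its log2 fold change of -0.19 had a 95% interval of -0.42 to 0.04 (adjusted p = 0.489). The 2 genes are adjacent on chromosome 7, Il4ra at chr7:125552120-125579474, on the same strand with 23955 bases between them. The ratio of Il21r to Il4ra was 1.87-fold higher in GFPhi (two-sided exact permutation p = 0.1, the smallest possible). In every GFPhi sample that ratio was above its value in each GFPlo sample. This ratio, too, restates the changes of both genes.

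Il6ra and Il15ra were the receptor chains of lowest level. Il6ra, which binds IL-6, was at 1.88, 2.16 and 2.45 TPM in GFPlo, 2.63, 3.03 and 3.12 in GFPmed, and 3.37, 3.64 and 4.51 in GFPhi, 3 groups without overlap. The log2 fold change of 0.61 (95% interval 0.15 to 1.06) did not pass after adjustment (adjusted p = 0.182), whereas limma-voom on the solved reads, added after seeing the data, with 131 to 164 per sample in GFPlo and 263 to 385 in GFPhi, gave 0.85 (adjusted p = 0.00339). Il15ra, which presents IL-15 to cells that carry the IL-2 receptor beta and gamma chains, was at 2.36 ± 0.125, 1.90 ± 0.30 and 2.37 ± 0.288 TPM. Its mean in GFPhi was 1.00-fold that in GFPlo, with a 95% interval of the log2 difference from -0.44 to 0.44. The genes lie at chr3:89864059-89913196 and chr2:11705290-11734317.

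Cish gave the largest rise among the 4 inhibitors. It lies on chr9:107296026-107302784 on the plus strand and encodes CIS, a SOCS family protein induced by STAT5. Levels were 21.7, 24.9 and 29.0 TPM in GFPlo, 34.2, 38.3 and 41.8 in GFPmed, and 77.7, 87.2 and 108 in GFPhi. No group overlapped another, and the gap between GFPmed and GFPhi was the widest. The counts were 156 to 167 reads in GFPlo and 706 to 801 in GFPhi. GFPhi against GFPlo was 1.81 (SE 0.15, 95% interval 1.45 to 2.17, adjusted p = 0.000806), rank 155 from the largest rise among the same 12128 genes. Between GFPmed and GFPhi the change was 1.23 (SE 0.15, adjusted p = 0.0104), and between GFPlo and GFPmed 0.58 (SE 0.15, adjusted p = 0.63). So 32.2% of the log2 change of Cish was present in GFPmed, beside 45.6% for Il21r and 12.2% for Il7r. The upper step of Cish depended on single samples, with an adjusted p of 0.0584 without GFPmed replicate 2 and 0.0506 without GFPmed replicate 3. The palindromes printed above for Cish, Socs3 and Il7r lie within the GENCODE spans of these genes, which start upstream of the RefSeq starts.

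Cish shares its span with an antisense gene, Gm17041, and a pseudogene, Gm17040. Gm17041 was at 25.9, 25.7 and 75.6 TPM in mean and rose by 1.53 on the log2 scale in GFPhi (adjusted p = 0.00217), while Gm17040 was at 2.13, 3.74 and 8.74 TPM and did not pass (1.68, adjusted p = 0.0741). Whether the counting used strand is not given in the sources used here, so reads of Cish and of these genes may not be told apart. The rise of Gm17041 is thus not shown to be a rise of antisense RNA. In GFPmed the mean of Cish was 1.51-fold that in GFPlo, while that of Gm17041 was 25.7 beside 25.9 TPM. Il4ra and Il6ra also overlap antisense genes, Gm44876 (-0.21, adjusted p = 0.717) and Gm42809 (0.25, adjusted p = 0.931).

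Socs1, which blocks JAK kinases directly and restrains interferon and gamma-chain signals, was the most abundant of the inhibitors. Levels were 149, 154 and 212 TPM in GFPlo, 152, 180 and 211 in GFPmed, and 116, 120 and 138 in GFPhi. The 3 GFPhi samples lay below all 6 others, while GFPlo and GFPmed overlapped. The log2 fold change of GFPhi against GFPlo was -0.45 (SE 0.17, 95% interval -0.83 to -0.06) and did not pass (adjusted p = 0.268). With same-numbered samples treated as a block in the fit, it did pass (adjusted p = 0.0481, limma). The gene lies on chr16:10782240-10785536.

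Socs3, the inhibitor that acts on receptors of the IL-6 type, went from 11.9, 13.4 and 14.6 TPM in GFPlo to 16.5, 19.7 and 25.3 in GFPmed and 16.0, 17.5 and 18.4 in GFPhi. The GFPlo samples lay below the other 6, and GFPmed and GFPhi overlapped. The changes of 0.57 to GFPmed (adjusted p = 0.718) and 0.36 to GFPhi (95% interval -0.02 to 0.74, adjusted p = 0.405) did not pass, and only 28 to 79 reads stood behind each level. Socs2, which restrains growth hormone signalling and also acts in T cells, was at 5.64 ± 1.43, 4.68 ± 1.07 and 4.79 ± 1.21 TPM. Its groups overlapped, and at 40 to 93 reads per sample the 95% interval of GFPhi against GFPlo ran from -0.80 to 0.41. They lie at chr11:117966079-117970047 and chr10:95385362-95417180.

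**Figure D2:**
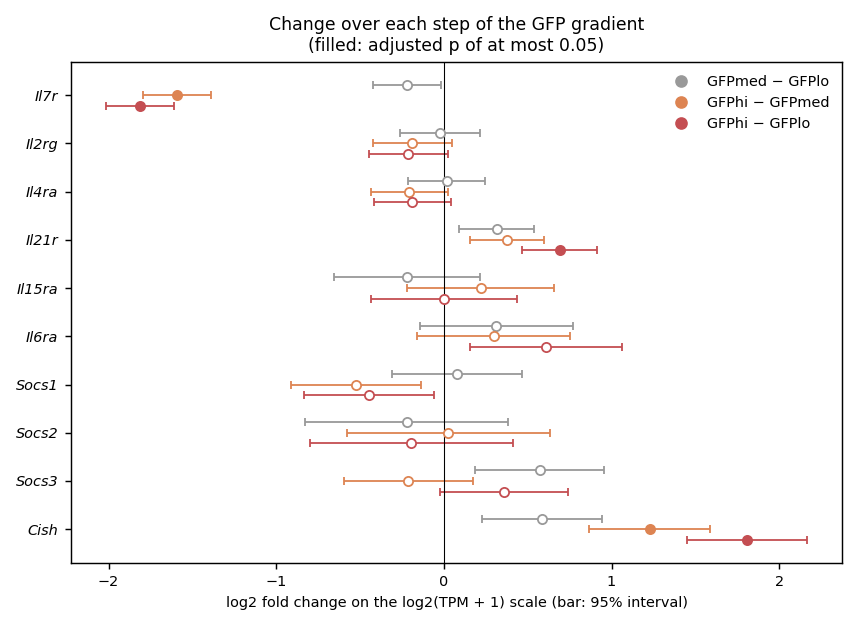
Each row is 1 of the 10 genes, and the x axis is the log2 fold change on the log2(TPM + 1) scale over GFPmed against GFPlo (grey), GFPhi against GFPmed (orange) and GFPhi against GFPlo (red). Bars are 95% intervals and filled points have an adjusted p of at most 0.05 (limma). No grey point is filled, Il7r and Cish have filled orange and red points on opposite sides of 0, and Il21r has a filled red point alone.

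Counted together at an adjusted p of at most 0.05, 2 of the 10 genes rose (Cish and Il21r) and 1 fell (Il7r) from GFPlo to GFPhi, beside 2.38% and 1.51% of all genes tested. At a log2 fold change of at least 1 as well, 1 was called higher and 1 lower, beside 1.26% and 0.404% of all genes. From GFPlo to GFPmed 0 of 10 passed by limma (Cish, Il21r, Socs3 and Il7r, 4 in all, at an unadjusted p under 0.05, and 0 by limma-voom), beside 0.0717% of all genes higher and 0.00326% lower. From GFPmed to GFPhi 1 rose and 1 fell, beside 0.899% and 0.609%, and both also met the fold change, beside 0.541% and 0.15%. Counted by samples that do not overlap, 4 genes were higher (Cish, Il21r, Il6ra and Socs3) and 2 lower (Il7r and Socs1) in GFPhi against GFPlo, beside 8.26% and 9.92% of all genes; 4 were higher and 0 lower in GFPmed against GFPlo, beside 5.55% and 4.7%; and 3 were higher and 2 lower in GFPhi against GFPmed, beside 7.11% and 9.41%. Their median log2 fold change in GFPhi against GFPlo, -0.09, was that of all genes, -0.09. The 10 genes therefore held large changes in both directions and no common shift. They were chosen with earlier results of these data known, so their counts are descriptions.

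On a scale without introns (TPM recomputed on exonic length, the union of all annotated exons of a gene), the private chains changed order along the gradient. This union can exceed the length of the transcripts present, by amounts that differ between genes, so levels of different genes compare only roughly. In GFPlo the order was Il2rg at 900.4, Il7r at 489, Il21r at 166, Il4ra at 157 and Socs1 at 111, followed at a distance by Cish at 9.89, Il15ra at 6.91, Il6ra at 6.66, Socs3 at 4.21 and Socs2 at 2.47. Samples overlapped between the neighbours Il21r and Il4ra and between Il15ra and Il6ra, and not between any other neighbours in this order. In GFPhi Il7r had dropped to 137, level with Il4ra at 137 and below Il21r at 272. Il4ra and Il7r, at 120 to 150 and 130 to 147, were there the only neighbours to overlap. Cish had come up to 35.7, still below Socs1 at 80.6, where in GFPlo Socs1 was above it by a wide gap.

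**Figure D3:**
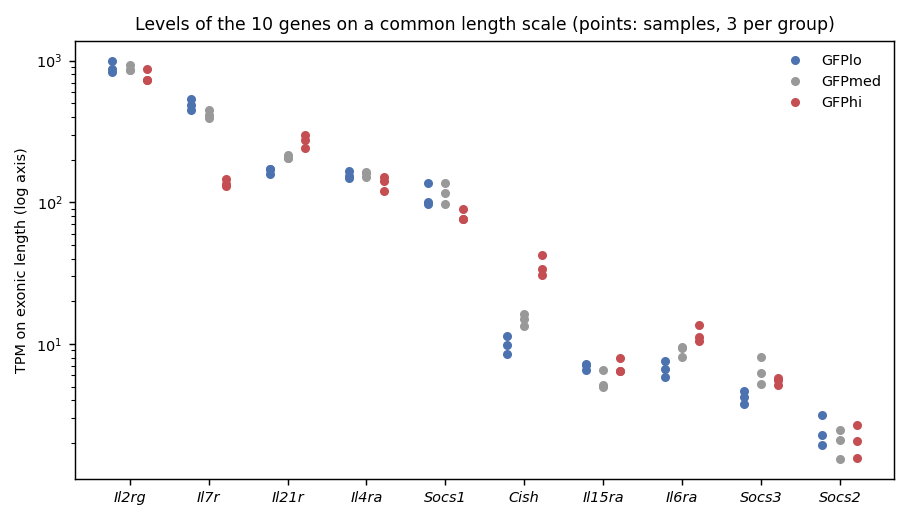
Levels of the 10 genes as TPM on exonic length (y axis, log scale), ordered by their GFPlo mean (x axis), with 1 point per sample and 3 samples in each of GFPlo (blue), GFPmed (grey) and GFPhi (red). Il7r lies above Il21r in GFPlo and below it in GFPhi, and Cish climbs from near 10 toward Socs1.

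The wider pathway was read from lists of 74 other genes, of which 68 were tested. Of these, 20 rose and 5 fell from GFPlo to GFPhi, that is 36.8%, beside 3.89% of all genes tested. Their median log2 fold change was 0.23 against -0.09 for all genes. The lists were chosen with earlier results of these data known, so these shares are a description and not a test of the pathway. Of the 30693 genes tested, 12128 had a mean TPM of at least 10, and the share over all genes is not matched for level. From GFPlo to GFPmed 0 of the 68 passed by limma, 17 at an unadjusted p under 0.05, and from GFPmed to GFPhi 7 were higher and 3 lower. The count of 20 higher genes from GFPlo to GFPhi depended on the scaling. It was 6 under median-of-ratios scaling, so most genes named below as higher in GFPhi did not pass there. It was 13 without GFPhi replicate 3 and 13 without GFPlo replicate 2.

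The receptor chains that complete the IL-2 and IL-15 receptors had larger log2 fold changes than any of the 10 genes. Il2rb, the signalling beta chain of both receptors, was at 5.68, 5.74 and 5.80 TPM in GFPlo, 10.3, 13.4 and 14.5 in GFPmed and 75.6, 77.8 and 99.6 in GFPhi, with a log2 fold change of 3.65 (SE 0.16, adjusted p = 4.6e-05). Il2ra, which encodes CD25, went from 0.606, 0.648 and 0.741 TPM to 1.5, 1.74 and 2.01 and to 8.11, 9.85 and 11.2 (2.68, SE 0.20, adjusted p = 0.000491), although CD25-bearing cells were gated out of the sort. In both genes the 3 groups were apart and GFPhi stood above GFPmed by the larger step. Crlf2, the receptor chain for TSLP, which pairs with the Il7r product, was at 24.5 ± 3.81 TPM in GFPlo and 30.2 ± 0.828 in GFPhi and did not pass (0.30, adjusted p = 0.322). Il9r and Il13ra1 were too low to test. Il2ra is also a marker of regulatory T cells. The summed level of 7 such markers was 186 to 195 TPM in GFPlo, 236 to 291 in GFPmed and 303 to 351 in GFPhi. Gpr83, at means of 74.3, 113 and 101 TPM, and Izumo1r, at 94.97, 123 and 143, dominated this sum. In GFPhi against GFPlo Izumo1r passed (0.58, adjusted p = 0.0131, limma) and Gpr83 did not (0.44, adjusted p = 0.255). Of the 7 markers, 4 passed as higher and 0 as lower there, and 0 passed from GFPlo to GFPmed. Foxp3, the defining factor of regulatory T cells, was at 6.75, 6.33 and 15.7 TPM (1.10, adjusted p = 0.00987), and its part in these results was not tested.

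Among 13 other cytokine receptors tested, 4 were higher and 2 lower in GFPhi. Il6st, the signalling partner of the IL-6 receptor chain, rose from 47.6 ± 1.29 to 86.9 ± 10.1 TPM (0.85, adjusted p = 0.00258). Il27ra (0.80, adjusted p = 0.00361), which also works with Il6st, and the interferon receptor chains Ifnar2 (0.67, adjusted p = 0.0408) and Ifnar1 (0.53, adjusted p = 0.00597) were the other 3, named after their values were seen. The 2 that fell were Il12rb2, a chain of the IL-12 receptor, from 2.95 ± 0.381 to 0.618 ± 0.0366 TPM (-1.28, adjusted p = 0.0075), and Il10ra, the IL-10 binding chain, from 16.2 ± 3.07 to 6.54 ± 0.484 TPM (-1.17, adjusted p = 0.00901). Of 5 ligand genes tested, Il21 alone passed, from 10.3 ± 2.66 to 18.5 ± 2.38 and 24.6 ± 1.03 TPM (1.21, adjusted p = 0.0122). Both Il21 and the chain that binds its product were thus higher in GFPhi than in GFPlo.

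Of the 4 JAK kinases, 2 were higher. Jak3, the kinase bound to the gamma chain, was at 54.4, 55.5 and 69.4 TPM in GFPlo and 110, 121 and 150 in GFPhi (1.07, adjusted p = 0.0049), and Jak2 went from 17.7 ± 0.547 to 31.6 ± 2.83 TPM (0.79, adjusted p = 0.0208). Jak1, the partner of Jak3 on most private chains, was at 140 ± 1.93 and 158 ± 18.6 TPM (0.17, adjusted p = 0.459), and Tyk2 at 45.2 ± 1.22 and 57.9 ± 5.37 (0.35, adjusted p = 0.101), neither passing. Jak3 thus rose where the gamma chain transcript it works with did not pass.

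Of 6 STAT genes, 3 were higher and 0 lower. Stat5a and Stat5b, close paralogs that relay IL-2, IL-7 and IL-15 and between which reads may be shared, are given side by side, the difference between their changes not being tested. Stat5a was at 45.1, 45.4 and 47.3 TPM in GFPlo, 54.5, 59.4 and 60.8 in GFPmed and 96.0, 97.4 and 109 in GFPhi, a log2 fold change of 1.12 (SE 0.08, adjusted p = 0.00034). Stat5b was at 60.2 ± 2.03 TPM in GFPlo and 62.8 ± 3.61 in GFPhi, its log2 fold change of 0.06 having a 95% interval of -0.12 to 0.24 (adjusted p = 0.848). Stat3 (0.73, adjusted p = 0.00647) and Stat2 (0.64, adjusted p = 0.0424) also rose, while Stat4 (0.51, adjusted p = 0.277) and Stat6 (0.37, adjusted p = 0.117) did not pass.

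Of 15 further genes of SOCS proteins and other inhibitors of JAK or STAT signalling, 1 passed, 6.67% beside 3.89% of all genes. It was Ptprc, which encodes the phosphatase CD45, at 268 ± 1.67 and 369 ± 22.8 TPM (0.46, adjusted p = 0.00597), and their median log2 fold change was 0.05.

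Among 12 known target genes of these cytokines, 5 were higher and 1 was lower. Bcl2, the survival factor that IL-7 maintains, fell from 55.8, 60.1 and 66.5 TPM in GFPlo to 45.3, 46.4 and 46.5 in GFPmed and 19.9, 24.0 and 27.1 in GFPhi, which was 2.57-fold (-1.33, SE 0.12, adjusted p = 0.00107). Bcl2 and Il7r thus went down together, although the GFPmed samples of Bcl2 already lay below its GFPlo range. That lower step of Bcl2 did not pass (-0.39, adjusted p = 0.79, limma). Bcl6, a repressor that STAT3 induces and STAT5 opposes, rose from 9.31 ± 1.52 to 37.3 ± 6.82 TPM (1.89, adjusted p = 0.000932), and Gfi1, a repressor of Il7r in other T cells, from 10.1 ± 1.94 to 37.5 ± 5.83 TPM (1.79, adjusted p = 0.00542). In GFPmed the mean of both was 10.2 TPM, close to GFPlo. The other 3, named after their values were seen, were Osm (0.67, adjusted p = 0.0322), Pim2 (0.65, adjusted p = 0.0322) and Ccnd3 (0.40, adjusted p = 0.0482). Mcl1, another survival factor, was at 1120 ± 78.9 and 1026 ± 11.7 TPM (-0.12, adjusted p = 0.717).

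Of 11 known regulators of Il7r transcription, 3 were higher and 2 lower. Besides Gfi1, the higher ones were Runx3 (0.96, adjusted p = 0.0158) and Foxo1, which activates Il7r in mature T cells, from 12.8 ± 1.20 to 24.5 ± 1.15 TPM (0.90, adjusted p = 0.00815). Runx1 fell from 15.5 ± 0.549 to 6.82 ± 0.469 TPM (-1.08, adjusted p = 0.00263) and Gata3 from 145 ± 14.9 to 86.7 ± 13.9 TPM (-0.74, adjusted p = 0.0149). Their part in the fall of Il7r was not tested.

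**Figure D4:**
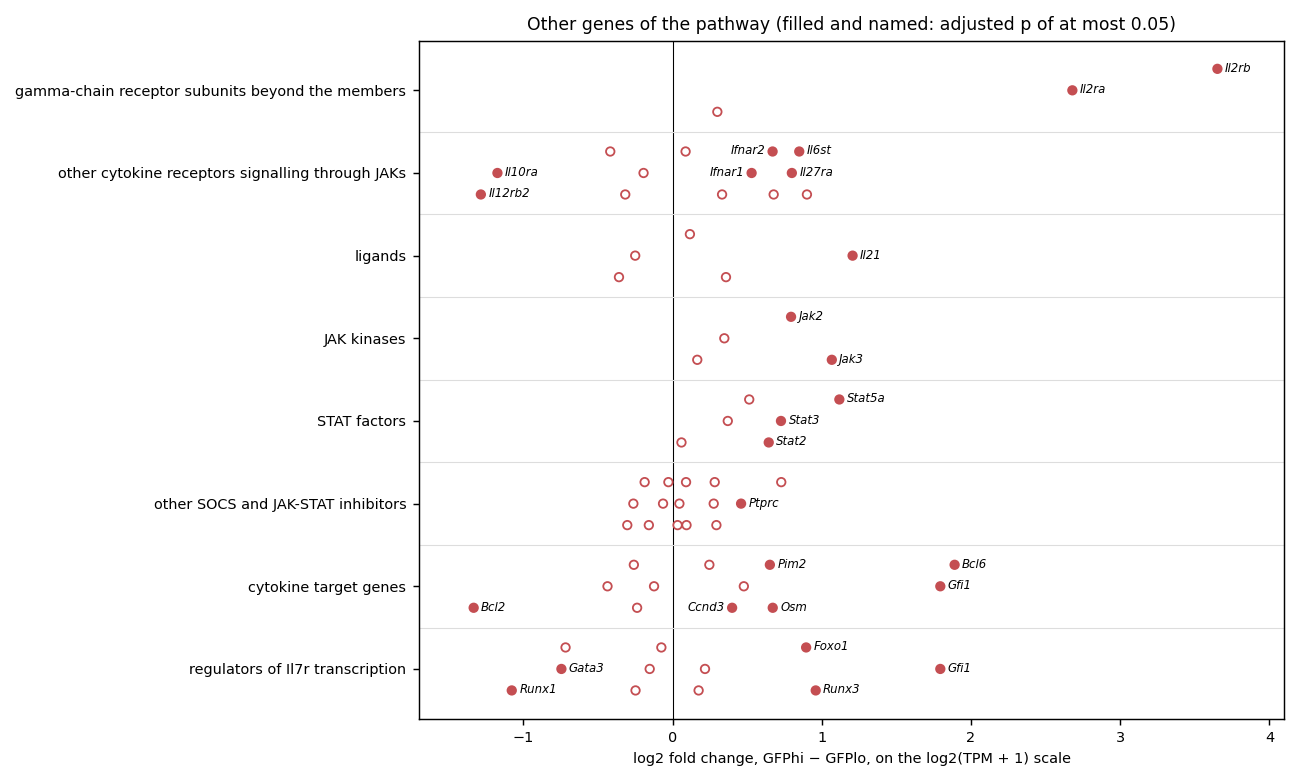
Log2 fold change of GFPhi against GFPlo on the log2(TPM + 1) scale (x axis) for each tested gene of 8 lists (rows); points are spread vertically for legibility, and filled, named points have an adjusted p of at most 0.05 (limma). The farthest points to the right are Il2rb at 3.65 and Il2ra at 2.68, and those farthest to the left are Bcl2 at -1.33 and Il12rb2 at -1.28; Gfi1 stands in 2 lists.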

How the data were processed

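The 9 samples were mapped to GFPlo, GFPmed and GFPhi by their labels, 3 per group; 0 sample columns were left unused. The authors aligned trimmed reads with STAR 2.7.11b to GRCm38, using GENCODE annotation, discarded identical duplicates and converted gene counts to the deposited TPM. The authors also divided counts by DESeq2 1.34.0 size factors and averaged them into the deposited mean signal of each group; their fold change and p columns were not used. TPM and group signal together gave whole reads (tolerance 0.05) for 41578 genes; 400 could not be solved. The gene length behind the TPM equalled the mean transcript span, introns included, within 1% for 98.4% of 41439 genes. Levels were therefore compared between genes on exonic length, the union of all annotated exons, from an earlier GENCODE release of the same build.

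Tests used limma 3.58.1 under R 4.3.3 with log2(TPM + 1) as the response, fitted once to all 9 samples, eBayes with trend, Benjamini-Hochberg over 30693 genes. Passing means an adjusted p of at most 0.05 and a call also a log2 fold change of 1 or more in size. Intervals are 95% and unadjusted. The fit was tested on simulated data. The 10 genes and the lists were chosen with earlier results of these data known. Named are the 10 genes, list genes that were called, up to 3 passing genes per list, the listed JAK and STAT genes, and the 3 genes most like Il7r and Cish; others, Crlf2, Mcl1 and genomic neighbours among them, were named after their values were seen. Cultures, animals or pools behind a replicate are not detailed in the labels, so p-values measure the spread between these samples. One gene of the lists is not reported here. Reads were PCR-amplified without molecular identifiers.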

Additional observations from a re-analysis of the deposited data

How the results depend on the processing

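Il7r and Cish passed in GFPhi against GFPlo under 19 of 19 alternatives, with log2 fold changes of -1.88 to -1.73 and 1.68 to 1.95 and adjusted p of at most 0.00488 and 0.0102, and Il21r under 17 of 19. With the count of genes passing in brackets, Il21r was lost in GFPhi against GFPlo under median-of-ratios scaling (1 higher) and with only the 2 groups compared (1 higher). Cish was lost in GFPhi against GFPmed under median-of-ratios scaling (0 higher, 0 called) and, with single samples left out, the counts higher and called ranged from 0 to 1. limma-voom on solved reads with library totals, chosen after seeing the data, gave 2 higher there by adding Il21r (adjusted p = 0.000632). The unevenness of Il7r passed (1 gene) with a pseudocount of 0.1 (adjusted p = 0.0499), quantile normalization (0.036) and limma-voom with library totals (1.72e-05). Il6ra passed in GFPhi against GFPlo with limma-voom on library totals and on size factors (0.00956). For the 68 pathway genes, the 20 higher became 6 and the 5 lower became 3 under median-of-ratios scaling, the lower became 2 with only the 2 groups compared and 8 by limma-voom with library totals, and leaving out single samples gave 13 to 17 higher and 4 to 7 lower. The cause of these shifts was not tested. 0 values changed sign among calls. The median of all genes in GFPhi against GFPlo was -0.09 and moved to -0.02 under median-of-ratios scaling and -0.01 under quantile normalization.

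Deviations from the group mean correlated weakly between same-numbered samples (mean 0.0609 over 9 pairs, all positive, 0.0122 to 0.225). The mean of -0.03 over 18 pairs of different number follows from the centring on group means and is no independent comparison. The numbers were not taken to pair samples in the main fit, and this check cannot exclude that they do. With the replicate block, 2 of the 10 genes were lower in GFPhi than in GFPlo, Socs1 joining Il7r (adjusted p = 0.0481); of the pathway genes named, Stat2 (0.0981), Ifnar2 (0.0913) and Osm (0.0702) no longer passed, and Ccnd2 did (0.0296). Il6ra and Il15ra were not tested at a TPM of at least 5. Depth limits Socs2 and Socs3, at under 100 reads per sample.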

Other observations

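The genes whose pattern over the 9 samples was most like that of Il7r, among 17362 genes with a mean TPM of at least 5, were other surface receptors. Ccr9, the receptor for the thymic chemokine CCL25, was at 311, 226 and 60.4 TPM in GFPlo, GFPmed and GFPhi (Pearson r = 0.995 over 9 samples, on log2(TPM + 1)). Ccr4, the chemokine receptor of cells newly entering the medulla, was at 204, 173 and 60.5 TPM (r = 0.994), and Itgb3, an integrin chain, at 83.1, 72.5 and 33.8 TPM (r = 0.993). All 3 fell between GFPlo and GFPhi, by 2.35, 1.74 and 1.27 on the log2 scale (adjusted p = 6.6e-06, 9.2e-05 and 0.000284, limma). These correlations are descriptions over samples that share 3 groups.

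Most like Cish were Nr4a3, a relative of the reporter gene, at 3.57, 6.62 and 17.0 TPM (r = 0.992), Dgka, a lipid kinase that restrains T cell receptor signalling, at 201, 243 and 356 TPM (r = 0.992), and Ubash3a, a phosphatase family inhibitor of the same receptor, at 143, 159 and 192 TPM (r = 0.992). All 3 rose in GFPhi, by log2 fold changes of 1.97, 0.82 and 0.42 (adjusted p = 0.000962, 0.00122 and 0.0047, limma). The ratio of Cish to Il7r was 12.8-fold higher in GFPhi than in GFPlo (two-sided exact permutation p = 0.1, the smallest possible). It restates the opposite changes of both genes.

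Il2ra lies next to Il15ra on chromosome 2, with 12097 bases between them, and rose by 2.68 on the log2 scale where Il15ra had a 95% interval around 0. Hemk1, the gene on the higher-coordinate side of Cish, rose by 0.75 (adjusted p = 0.0138), while Mapkapk3 on the other side did not pass (0.38, adjusted p = 0.19).

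Of the marker lists of other cell types, B cell genes summed to 20.9 to 30.3 TPM in GFPlo and 12.3 to 31.8 in GFPhi, myeloid and dendritic cell genes to 59.0 to 74.2 and 70.5 to 93.7, NK, NKT and gamma-delta genes to 28.3 to 29.8 and 20.3 to 30.5, SP8 genes to 57.0 to 63.5 and 50.5 to 58.8, and thymic epithelial genes to 3.86 to 8.96 and 10.3 to 13.2. The single erythroid gene in the table was at 1.51 to 2.42 and 3.22 to 6.10 TPM. Of the genes in these lists, 5 passed: Epcam, an epithelial gene also made by some T cells (1.38, adjusted p = 0.012), and Runx3 (0.96, adjusted p = 0.0158) were higher in GFPhi, and the SP8 genes Cd8a (-1.12, adjusted p = 0.0158) and Cd8b1 (-0.79, adjusted p = 0.00646) and the gamma-delta gene Sox13 (-1.88, adjusted p = 0.0135) were lower, while the epithelial factors Aire and Foxn1 were at means of 0.40 to 0.61 and 0.44 to 0.70 TPM over the groups.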
